A study of Mus musculus with 6 samples.

Results

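The genes described here encode the constitutive proteasome, and they were chosen by name. Every listed gene whose symbol begins with Psma, Psmb, Psmc, Psmd or Psme and a digit was taken, without pseudogene entries and without the interferon-inducible subunits Psmb8, Psmb9 and Psmb10. The rule found 42 of the 15415 genes listed. They are 8 α and 7 β subunits of the 20S core, 9 genes of the 19S base, 8 genes of the 19S lid, 4 genes of the PA28 family, Psme4 (PA200), and the 19S assembly chaperones Psmd5, Psmd9 and Psmd10. The other 2, Psmc3ip and Psme3ip1, match by name only and are not proteasome subunits.

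RNA was sequenced from peritoneal macrophages (PEMs) of mice with floxed Tim-4 alleles, which encode a phosphatidylserine receptor of macrophages. The 3 CKO libraries came from animals of the genotype LysM-Cre; Tim-4 fl/fl, where the Lyz2 locus drives Cre in myeloid cells, and the 3 Control libraries came from Tim-4 fl/fl animals without Cre. The mice were C57BL/6J males of 6 to 8 weeks, and PEMs were collected 3 days after an intraperitoneal injection of 6% starch. All 6 libraries carry the treatment label lps, and the methods describe activation of PEMs with 1 μg/ml lipopolysaccharide for 3.5 hours but do not say whether the sequenced cells received it. Groups were taken from the sample titles, because the genotype entry of the labels names them the other way round. The labels do not say whether the libraries of a group came from separate mice, so p-values measure only the spread between these libraries.

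The proteasome degrades proteins that carry ubiquitin chains. Its 20S core is a barrel of outer rings of α subunits and inner rings of β subunits, and 3 of the β subunits, encoded by Psmb6 (β1), Psmb7 (β2) and Psmb5 (β5), cut the protein chain. The 19S regulator caps the barrel, with a base of ATPases that unfold the substrate and a lid that removes the ubiquitin chain. PA28 and PA200 are other caps that do not use ATP. In cells exposed to interferon-γ the catalytic subunits are replaced by Psmb9, Psmb10 and Psmb8, which gives the immunoproteasome and favours peptides for MHC class I. The transcription factor NRF1 (Nfe2l1) raises the proteasome genes together through antioxidant response elements in their promoters when proteasome activity falls.

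The values are FPKM, reads scaled to the length of the gene and to the counted reads of the library, at a depth of 36170767 to 42217558 reads per library. The targeted gene, Timd4, had 0.333, 0.394 and 0.246 FPKM in CKO 1, 2 and 3 and 19.5, 12.05 and 1.19 FPKM in Control 1, 2 and 3. Its log2 fold change was −2.66 ± 0.74 (SE) with an adjusted p of 0.0715 in limma, fitted to log2(FPKM + 1), and 0.0436 with the replicate number as a block. Control 3 therefore stood apart from the other Control libraries, and without it the log2 fold change of Timd4 was −3.63 with an adjusted p of 0.00041. CKO 2 stood apart in Lyz2, with 4656 FPKM against 41.4 and 106 in CKO 1 and CKO 3 and 7090, 7171 and 8482 in the Control libraries. The summed level of 8 macrophage marker genes ranged from 2682 to 7277 FPKM in CKO and from 9365 to 11148 FPKM in Control, and all 8 were listed. Lyz2 made up this gap, since the other 7 summed to 2621–2876 FPKM in CKO and 2194–2665 FPKM in Control. Of these 7, Cd68 and Fcgr1 were higher in every CKO library, and Csf1r and Cd14 were lower. Markers of lymphocytes and granulocytes had lower sums in CKO than in Control: 6 listed B cell markers summed to 3.24–6.17 against 30.8–124 FPKM, 6 mast cell markers to 1.89–2.25 against 37.5–49.0 FPKM, 5 neutrophil markers to 42.0–73.8 against 161–175 FPKM, and 5 T cell markers to 1.42–2.68 against 2.83–10.6 FPKM. S100a8 carried most of the neutrophil sum (CKO mean 54.4, Control mean 161 FPKM) and Cd2 most of the T cell sum in Control (0.432 and 4.88 FPKM), while Lat had a higher mean in CKO (1.44 and 1.07 FPKM) and S100a9 overlapped. Of the defining markers, Cd3e, Cd3d, S100a9, Ngp and Ms4a2 were at 0 in some library, and none was at 0 in every library. The 6 mesothelial and fibroblast markers summed to 10.1–25.7 FPKM in CKO and 2.09–10.9 FPKM in Control, and the 5 proliferation markers to 24.8–29.6 and 27.9–45.9 FPKM. Mki67 carried the latter sum (23.2 and 33.0 FPKM on average), and the other 4 had higher means in CKO with overlap between the groups. The part of these differences in the proteasome results was not tested, and in bulk RNA fewer cells of a type and less RNA per cell cannot be told apart.

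Proteasome transcripts were abundant in both groups, but their FPKM values were not equal among subunits that assemble in equal number. The plot of transcript levels shows each subunit of the core and of the 19S regulator in each library. Over the 14 core genes that reached a mean of 1 FPKM in a group, the mean level over the 6 libraries ranged from 32.2 FPKM for Psma3 to 302 FPKM for Psmb6, with a median of 98.1 FPKM. Over the 17 genes of the base and lid it ranged from 41.4 FPKM for Psmd3 to 306 FPKM for Psmd8, with a median of 68.7 FPKM. Within the core, the highest level was 11.5 to 12.2 times the lowest in the CKO libraries and 5.25 to 10.3 times in the Control libraries. Psmb6 and Psma3 were the extremes in all 6 libraries. FPKM divides by gene length, which was 3325 bases for Psma3 and 1255 bases for Psma1. Psma3 had 3787 to 5432 reads per library and Psma1 3063 to 4570. The low FPKM of Psma3 therefore depends on the length used. The assembly chaperones were lower, with 6.39 FPKM for Psmd9, 15.6 FPKM for Psmd5 and 48.8 FPKM for Psmd10. Psma8, the testis α subunit, was at 0.220 ± 0.096 FPKM in CKO and 0.172 ± 0.043 FPKM in Control (SD, n = 3 libraries each), which rests on 11 to 29 reads per library. Psma8 and Psmc3ip were below the filter and were not tested, so 40 genes remain. These still include Psme3ip1, which is not a subunit. The thymic β5 subunit, Psmb11, is not in the table used here.

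**Figure D1:**
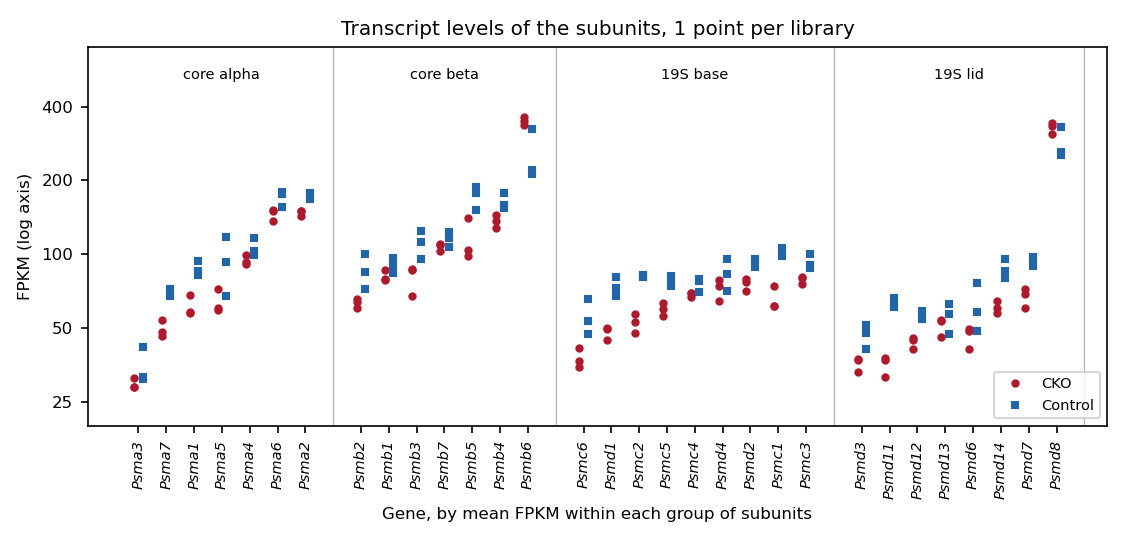
FPKM (log axis) of each tested gene of the 20S core and the 19S regulator, with 1 point per library, red circles for CKO and blue squares for Control (3 libraries each). Within each group of subunits the genes are ordered by mean FPKM, and Psmb6 (302 FPKM) and Psmd8 (306 FPKM) lie well above the others.

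Between genotypes, most proteasome genes had lower values in CKO than in Control. The fitted log2 fold change was below 0 for 34 of the 40 tested genes (85%), against 63.5% of all 9030 genes tested, and its median was −0.27 against −0.11 for all genes. Among the 34 is Psme3ip1, which is not a subunit, at −0.04. After Benjamini-Hochberg adjustment over all 9030 genes, 5 of the 40 passed the threshold of 0.05 in limma, all of them lower: Psmd11, Psmd5, Psmc2, Psmc1 and Psmd1. This is 12.5% of the tested genes, against a background of 7.31% of all genes called in either direction and 4.74% called lower. At an unadjusted p under 0.05 the counts were 19 of 40 (47.5%) and 27.6% of all genes. In 23 of the 40 genes (57.5%) every CKO library lay below every Control library, against 23.0% of all genes, and in 1 gene, Psmb6, every CKO library lay above every Control library, against 11.1% of all genes.

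The general shift between the libraries bears on these counts. When the FPKM values were rescaled by the median of ratios over genes, the median of all genes moved from −0.11 to 0.01, and the median of the proteasome genes moved from −0.27 to −0.13. Relative to all genes the proteasome median was −0.16 before rescaling. After rescaling 28 of the 40 genes were lower, against 4370 of all 9030 genes. Psmd11 and Psmd5 were then the 2 called, at a background of 7.41%. With the replicate number as a block, 3 were called (Psmc2, Psmd11 and Psmd5), at a background of 9.47%. Without CKO 1, CKO 2 or Control 2, limma called 0 of the 40 each time, and only 30, 63 and 8 of all 9030 genes. At an unadjusted p under 0.05 limma then had 14, 12 and 16 of the 40, and 1608, 1448 and 1779 of all genes. Without Control 3 it called 9 of the 40 and 1278 of all genes (14.2%), without Control 1 it called 3 and 786 (8.70%), and without CKO 3 it called 4 and 526 (5.83%).

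Across libraries most of the genes varied together. The mean of the 40 genes, each centred on its own mean over the 6 libraries on the log2(FPKM + 1) scale, was −0.11, −0.22 and −0.09 in CKO 1, 2 and 3 and 0.12, 0.17 and 0.13 in Control 1, 2 and 3. All genes averaged −0.10, −0.08 and 0.02 in the CKO libraries and −0.03, 0.09 and 0.10 in the Control libraries. CKO 2, the library with the high Lyz2, held the lowest value of 27 of the 40 genes. The highest value was spread over the Control libraries, with 11 genes in Control 1, 11 in Control 2 and 13 in Control 3. Without CKO 2 the median log2 fold change of the 40 genes was −0.23, and without Control 3 it was −0.29. The heat map of centred values shows this pattern, and it also shows the genes that ran the other way.

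**Figure D2:**
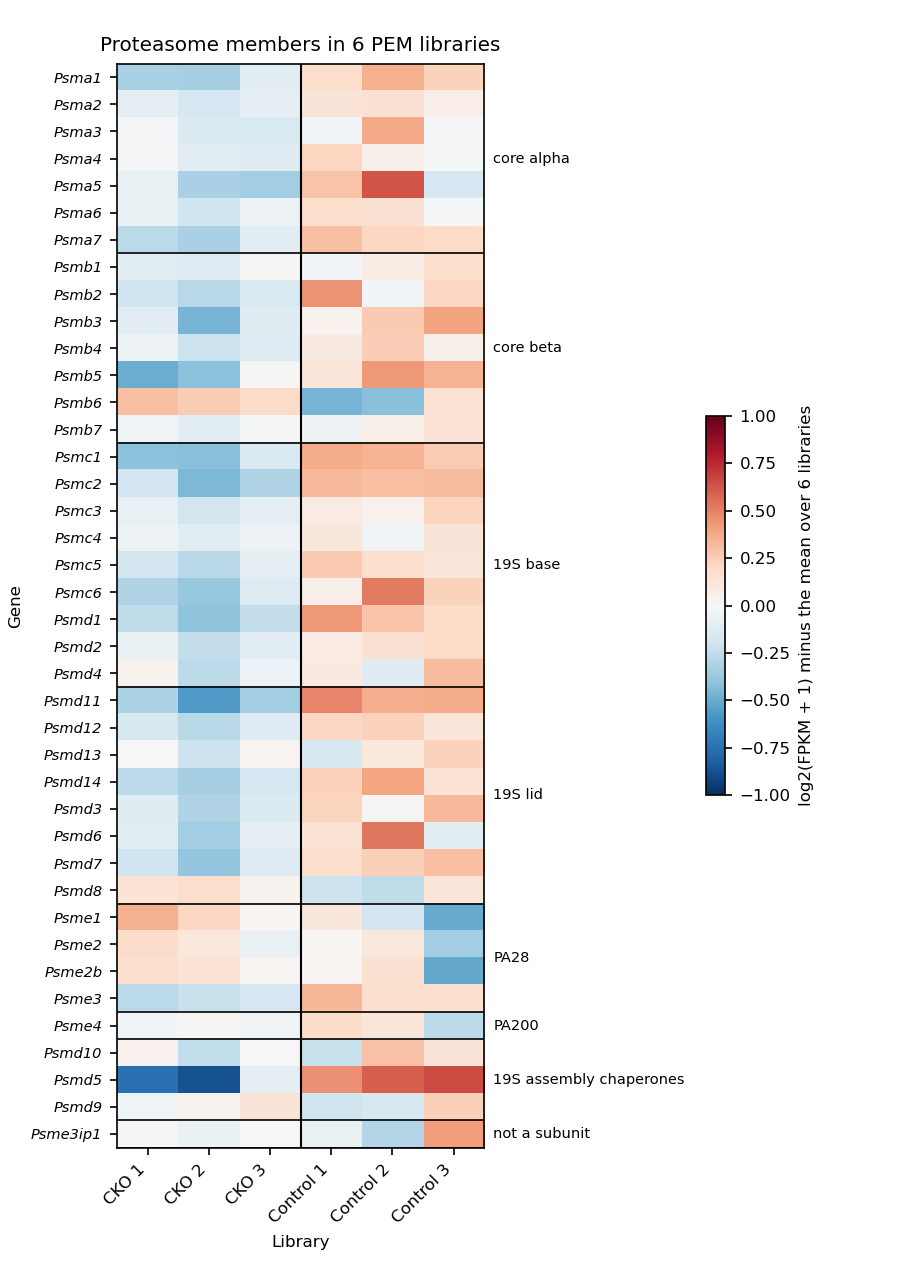
Heat map of log2(FPKM + 1) minus the gene's mean over 6 libraries, for the 40 tested genes (rows, by class of subunit) in the 3 CKO and 3 Control libraries (columns), where blue is below and red above the mean. Rows of the core and of the 19S regulator are mostly blue in CKO and red in Control, and Psmb6, Psmd8, Psme1, Psme2 and Psme2b differ from this.

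The 19S regulator held 4 of the 5 genes that passed the test. These are 23.5% of its 17 genes, against 7.31% of all genes called and 4.74% called lower, and 1 of the 4 was called after rescaling and 2 with the replicate block. Of its 17 genes, 16 were lower in CKO, against 63.5% of all genes. In 13 the groups did not overlap and CKO was lower, against 23.0% of all genes, and 11 had an unadjusted p under 0.05, against 27.6%. The median log2 fold change was −0.37 for the 9 genes of the base and −0.37 for the 8 genes of the lid, and −0.23 for both together after rescaling.

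Psmd11 (Rpn6), a scaffold subunit of the lid that clamps the regulator to the core, had the largest change of any subunit. It was at 37.7, 31.5 and 37.0 FPKM in CKO and at 66.4, 60.9 and 61.3 FPKM in Control. All CKO libraries were far below all Control libraries. Psmd11 fell by 43.1% on the FPKM + 1 scale (log2 fold change −0.81 ± 0.13, SE, limma adjusted p = 0.0171). After rescaling its log2 fold change was −0.67 with an adjusted p of 0.0439, but without CKO 1, CKO 2 or Control 2 the adjusted p was 0.0792, 0.0961 and 0.0883.

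In the base, 3 genes passed the test, and each is named here with its role. Psmc1 (Rpt2), an ATPase whose tail opens the gate of the core, was at 61.6, 61.3 and 74.4 FPKM in CKO and 106, 105 and 98.4 FPKM in Control. Its log2 fold change was −0.65 ± 0.13 (SE, limma adjusted p = 0.0325). Psmc2 (Rpt1), another of the ring ATPases, was at 57.2, 47.7 and 53.0 FPKM in CKO and at 82.2, 80.9 and 81.5 FPKM in Control. The groups were well apart and Control varied little, and the log2 fold change was −0.63 ± 0.12 (SE, limma adjusted p = 0.0297). Psmd1 (Rpn2), the large scaffold of the base, was at 49.8, 44.7 and 50.2 FPKM in CKO and at 80.9, 72.7 and 67.6 FPKM in Control, with a log2 fold change of −0.60 ± 0.13 (SE, limma adjusted p = 0.0366). All 3 kept their direction after rescaling, but their adjusted p was 0.0716, 0.0868 and 0.125, and with the replicate block it was 0.0505 for Psmc1, 0.0436 for Psmc2 and 0.0512 for Psmd1.

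The other genes of the base and lid did not pass the test. Psmc4 (Rpt3) had the smallest difference in the base, with 69.6, 66.8 and 69.5 FPKM in CKO and 77.7, 70.0 and 79.0 FPKM in Control. Its groups did not overlap, but the log2 fold change was only −0.14 (limma adjusted p = 0.478) and it was 0.01 after rescaling. The remaining 5 base genes, which include the ubiquitin receptor Psmd4 (Rpn10), had log2 fold changes from −0.54 for Psmc6 to −0.19 for Psmd4. In the lid, Psmd14 (Rpn11), the enzyme that cuts the ubiquitin chain from the substrate, had a log2 fold change of −0.51 (limma adjusted p = 0.0555), with 60.6, 57.5 and 64.5 FPKM in CKO and 85.5, 96.1 and 80.1 FPKM in Control. The other lid genes lay between −0.48 for Psmd7 and −0.12 for Psmd13, except Psmd8.

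Psmd8 (Rpn12), the subunit that completes the lid, was the only 19S gene with a higher mean in CKO. It was at 334, 343 and 311 FPKM in CKO and at 262, 255 and 330 FPKM in Control, so that Control 3 lay among the CKO libraries. The log2 fold change was 0.23 (95% confidence interval −0.11 to 0.56, limma adjusted p = 0.337), which does not separate the groups. It was 0.37 after rescaling (limma adjusted p = 0.158) and 0.35 without Control 3 (limma adjusted p = 0.107).

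Psmd5, Psmd9 and Psmd10 bind single ATPases while the base is put together and leave before it joins the core. Psmd5 had the lowest log2 fold change of all 40 genes. It was at 8.05, 7.33 and 13.3 FPKM in CKO and at 19.9, 22.1 and 22.9 FPKM in Control. The groups did not overlap, although CKO 3 was nearer to Control than the other CKO libraries. Psmd5 fell by 54.7% on the FPKM + 1 scale (log2 fold change −1.14 ± 0.21, SE, limma adjusted p = 0.0273). After rescaling the log2 fold change was −1.01 with an adjusted p of 0.0259. Its adjusted p was 0.0518 when no filter on low values was used, and 0.116, 0.120 and 0.124 without CKO 1, CKO 2 and Control 2. Psmd9 and Psmd10 overlapped between the groups, with log2 fold changes of 0.08 and −0.13.

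**Figure D3:**
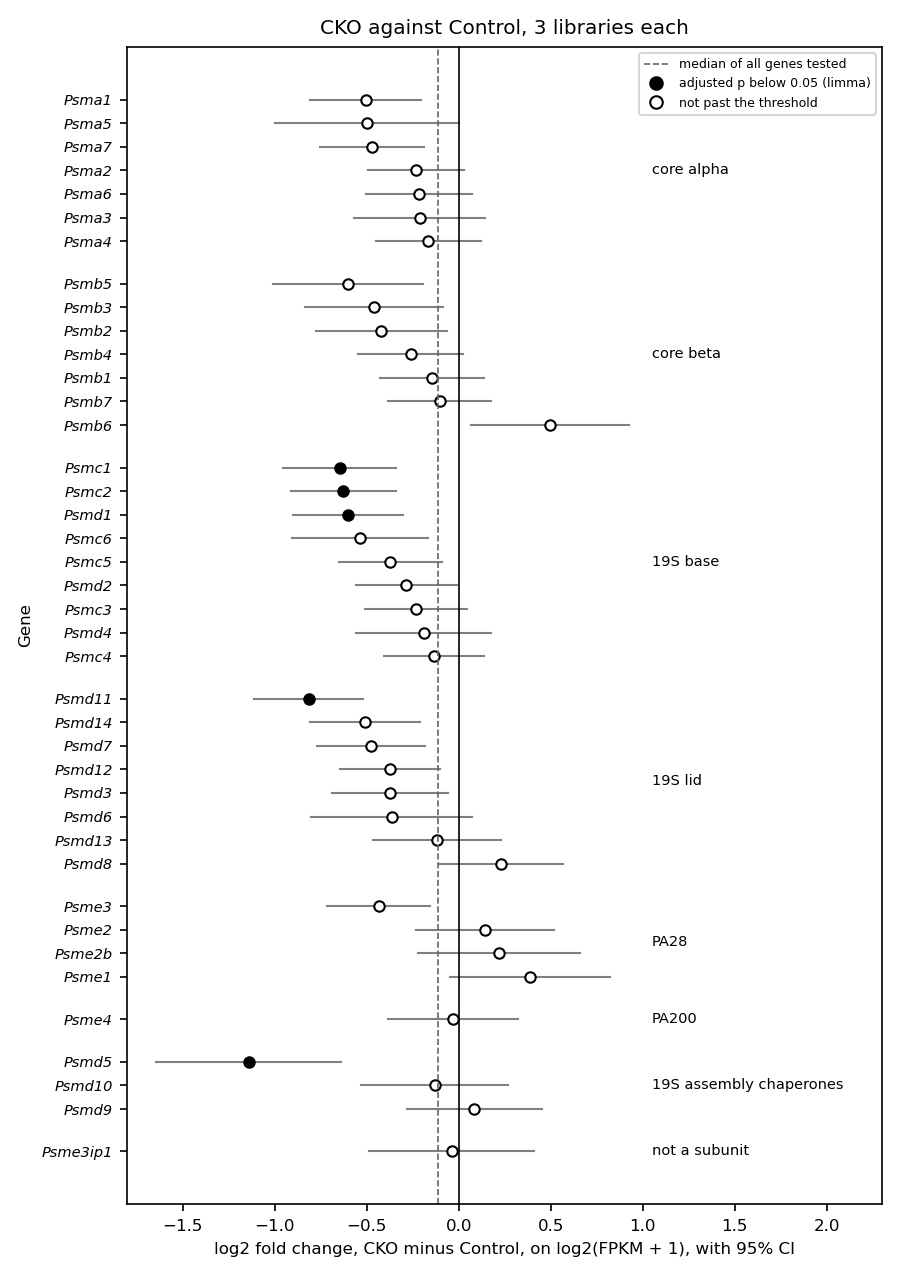
Log2 fold change of CKO minus Control on log2(FPKM + 1) for the 40 tested genes, by class, as points with 95% confidence intervals from limma, filled where the adjusted p is below 0.05. The dashed line is the median of all 9030 genes (−0.11), and the 5 filled points are Psmc1, Psmc2, Psmd1, Psmd11 and Psmd5, all to its left.

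In the 20S core, 13 of 14 genes were lower in CKO, but limma and limma-voom on the recovered reads each called 0. At an unadjusted p under 0.05 limma had 6 of the 14, against 27.6% of all genes. The median log2 fold change was −0.23 for the α subunits and −0.26 for the β subunits, and −0.10 for the core as a whole after rescaling. In 8 of the 14 every CKO library lay below every Control library, against 23.0% of all genes.

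The α subunits form the outer rings, with the gate through which substrates enter. All 7 tested α genes had lower values in CKO. Psma1 (α6) had the largest difference, with 58.1, 57.8 and 68.0 FPKM in CKO and 82.6, 93.5 and 85.9 FPKM in Control, and a log2 fold change of −0.51 (95% confidence interval −0.81 to −0.21, limma adjusted p = 0.0571). Psma4 (α3) had the smallest, with 99.5, 92.9 and 91.6 FPKM in CKO and 116, 104 and 99.2 FPKM in Control. The highest CKO value of Psma4 lay above the lowest Control value, and the log2 fold change was −0.16 (limma adjusted p = 0.415), which was −0.02 after rescaling and −0.10 without Control 1.

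The 3 catalytic genes differed in direction. Psmb5 (β5, the chymotrypsin-like site) was at 98.1, 104 and 140 FPKM in CKO and at 151, 188 and 177 FPKM in Control. Every CKO library was lower, with a log2 fold change of −0.60 ± 0.17 (SE, limma adjusted p = 0.079), and over the 6 fits that leave out a library the adjusted p ranged from 0.0493 without CKO 3 (log2 fold change −0.75) to 0.286 without CKO 2. Psmb6 (β1, the caspase-like site) ran the other way, with 363, 351 and 337 FPKM in CKO and 213, 220 and 326 FPKM in Control. The groups did not overlap, but Control 3 came close to CKO, and the log2 fold change was 0.49 ± 0.18 (SE, limma adjusted p = 0.137). Without Control 3, the Control library with the low Timd4, it was 0.69 with an adjusted p of 0.0141, and over the other libraries left out the adjusted p was 0.202 to 0.359. Psmb7 (β2, the trypsin-like site) was at 109, 103 and 110 FPKM in CKO and at 107, 116 and 123 FPKM in Control. These overlapped, with a log2 fold change of −0.10 (limma adjusted p = 0.60) that became 0.04 after rescaling. The 4 β subunits without a catalytic site, Psmb1, Psmb2, Psmb3 and Psmb4, had log2 fold changes from −0.46 for Psmb3 to −0.15 for Psmb1. That of Psmb1 was −0.002 after rescaling.

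Psmb6 and Psmd8 also differed from the rest in their pattern over libraries. The Pearson correlation of each gene with the mean of the other members over the 6 libraries was −0.79 for Psmb6, −0.74 for Psmd8 and −0.71 for Psme1, while it reached 0.99 for Psmd12 and 0.98 for Psmd7. These correlations share the same 6 libraries and their depth, and are given as a description. Psmb6 and Psmd8 were the most abundant genes of the core and of the 19S regulator, respectively.

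The inducible counterparts of the catalytic genes are set beside them here, since each pair competes for 1 place in the core. Psmb8 was at 172, 148 and 137 FPKM in CKO and at 152, 130 and 69.1 FPKM in Control. Psmb9 was at 46.5, 47.3 and 39.9 FPKM in CKO and at 42.1, 32.6 and 15.2 FPKM in Control, and Psmb10 at 122, 121 and 94.4 FPKM and at 96.2, 82.3 and 48.0 FPKM. All 3 had their lowest value in Control 3 and overlapped between the groups. Their log2 fold changes were 0.45, 0.67 and 0.62, with adjusted p of 0.345, 0.244 and 0.181 in limma, so none passed the test. Without Control 3 they were 0.11, 0.26 and 0.32.

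The ratio of a constitutive to an inducible subunit within a library does not depend on the scaling between libraries. Psmb5 to Psmb8 was 0.57, 0.705 and 1.02 in CKO and 0.995, 1.45 and 2.56 in Control, so CKO 3 and Control 1 overlapped. The difference of the log2 ratio, CKO minus Control, was −1.05, with p = 0.2 in a two-sided exact permutation test. Psmb7 to Psmb10 differed by −0.72 (exact p = 0.2) and Psmb6 to Psmb9 by −0.17 (exact p = 1). For 3 libraries against 3 the smallest p of this test is 0.1. Adjusted over the 5 ratios tested, these values were 0.25, 0.25 and 1. Without Control 3 the differences were −0.69, −0.38 and 0.43. Taken as pairs of the same replicate number, the differences were −0.80, −1.03 and −1.31 for Psmb5 to Psmb8 and −0.32, −0.72 and −1.12 for Psmb7 to Psmb10, all in 1 direction. An exact sign-flip permutation test gave p = 0.25 for both, the smallest that 3 pairs allow.

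**Figure D4:**
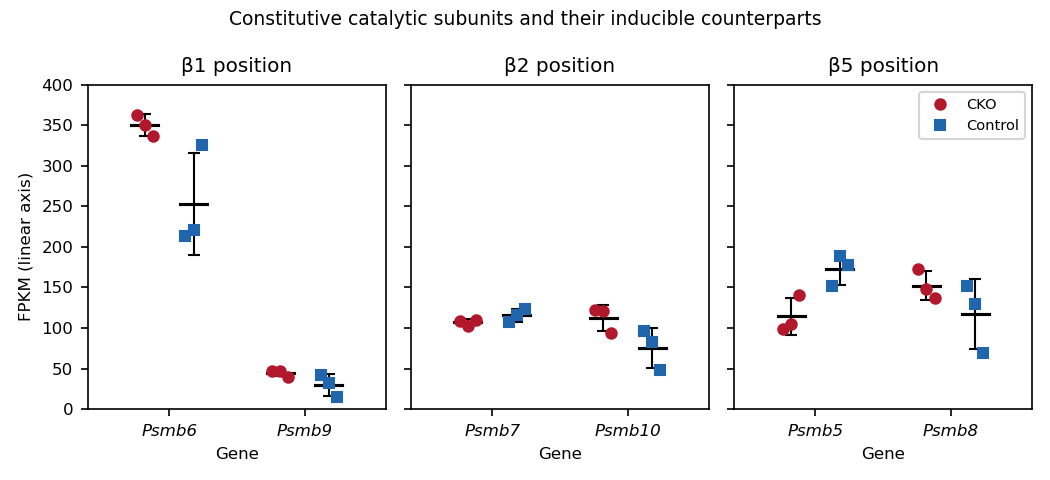
FPKM (linear axis from 0) of the constitutive catalytic genes and their inducible counterparts at the β1, β2 and β5 positions, with 1 point per library (red circles CKO, blue squares Control), the mean as a line and the SD as error bars (n = 3 each). Psmb5 is lower and Psmb6 higher in CKO without overlap, whereas Psmb7 and all 3 inducible genes overlap.

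None of the 4 PA28 genes passed the test in limma or limma-voom, and 1 had an unadjusted p under 0.05 in limma (25%, near the 27.6% of all genes). Psme1 (PA28α) and Psme2 (PA28β) form 1 interferon-inducible cap, and Psme3 (PA28γ) forms a nuclear cap of its own. Psme1 was at 190, 171 and 150 FPKM in CKO and at 160, 130 and 104 FPKM in Control, and the groups overlapped. Its log2 fold change was 0.39 (95% confidence interval −0.05 to 0.82, limma adjusted p = 0.221). Psme2 was at 262, 250 and 220 FPKM in CKO and at 235, 249 and 182 FPKM in Control, with a log2 fold change of 0.14 (limma adjusted p = 0.588). Psme2b, a near-identical copy of Psme2 whose reads cannot be assigned with certainty, had a log2 fold change of 0.22 (limma adjusted p = 0.478). Like the inducible β genes, all 3 were lowest in Control 3, and without that library the median of the PA28 genes went from 0.18 to 0.01.

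Psme3 was at 19.7, 20.3 and 21.2 FPKM in CKO and at 30.4, 26.8 and 26.7 FPKM in Control. Every CKO library was lower and the spread within CKO was small, but the log2 fold change of −0.44 ± 0.12 (SE) had an adjusted p of 0.0693 in limma. Relative to the mean of Psme1 and Psme2 within a library, Psme3 was at 0.087, 0.0966 and 0.114 in CKO and at 0.154, 0.141 and 0.187 in Control. The groups did not overlap and the log2 ratio differed by −0.70 (exact permutation p = 0.1, the smallest possible, 0.25 after adjustment over the 5 ratios). Psme1 to Psme2 differed by 0.24 in log2 ratio, with the same p and adjusted p. Psme4, the PA200 cap, was at 15.3, 15.7 and 15.2 FPKM in CKO and at 17.9, 17.1 and 12.9 FPKM in Control, which overlapped (log2 fold change −0.03, 95% confidence interval −0.38 to 0.32).

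Promoter sequences from RefSeq (build GRCm38.p6, 250 bases before to 50 after each gene start) were matched to 35 of the 42 genes by symbol. Psma8, Psmb1, Psmb2, Psmb7, Psmc3, Psmd3 and Psmd7 had no entry. The core of the antioxidant response element was searched as TGACNNNGC and as TGAGNNNGC, and the binding sequence of the factor NF-Y as CCAAT, on both strands. No 2 of these 3 can match at the same place on 1 strand. TGACNNNGC was in 6 of 35 genes (17.1%), against 14.0% of all genes in the table. TGAGNNNGC was in 12 of 35 (34.3%), against 19.8%, and CCAAT in 14 of 35 (40.0%), against 41.1%. Either form of the response element was in 16 of 35 (45.7%), against 30.8%. Psmc3ip, which is not a subunit, is among the genes with TGAGNNNGC and CCAAT. Psme3ip1, also not a subunit, is among those with CCAAT.

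Sequences are shown for the subunit and the chaperone with the lowest fold changes and for the 2 catalytic genes whose values differed in opposite directions. They run 5′ to 3′ up to the gene start, in lower case, with a TGACNNNGC match in capitals. Psmd11 lies at chr11:80428465-80428614 (+ strand), Psmd5 at chr2:34870963-34871112 (− strand), Psmb5 at chr14:54617996-54618145 (− strand) and Psmb6 at chr11:70525327-70525356 (+ strand).
Psmd11: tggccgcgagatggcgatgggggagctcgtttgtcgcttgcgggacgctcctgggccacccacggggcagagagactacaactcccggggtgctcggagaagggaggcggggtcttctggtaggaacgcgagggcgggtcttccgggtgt
Psmd5: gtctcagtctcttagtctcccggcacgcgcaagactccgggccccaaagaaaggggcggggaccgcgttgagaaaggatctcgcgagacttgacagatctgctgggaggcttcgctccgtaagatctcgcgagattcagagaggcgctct
Psmb5: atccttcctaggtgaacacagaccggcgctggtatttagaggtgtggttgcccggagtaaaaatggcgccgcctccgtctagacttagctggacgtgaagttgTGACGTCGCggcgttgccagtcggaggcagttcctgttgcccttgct
Psmb6: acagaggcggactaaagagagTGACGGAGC
The match in Psmb5 begins 47 bases and that in Psmb6 9 bases before the start. Psmb5 and Psmb6 thus share these letters, while Psmd11 has none of the 3 motifs in its window. Psmd5 has none in the stretch shown and a TGAGNNNGC match on the opposite strand 153 bases before its start. A match is only a match of letters and was not tested as a binding site.

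Other genes of the pathway were read from lists of related function. Among 14 tested proteasome genes outside the naming rule, 2 fell and 0 rose in limma (14.3%, against 7.31% of all genes called and 4.74% called lower). Txnl1, a thioredoxin-like protein bound to the 19S regulator, was at 27.4, 29.5 and 32.1 FPKM in CKO and at 44.8, 58.3 and 47.1 FPKM in Control (log2 fold change −0.73, limma adjusted p = 0.0322, and 0.0525 with limma-voom). Ecpas, a scaffold that holds the regulator on the core, was at 11.3, 12.1 and 10.9 FPKM in CKO and at 16.9, 17.2 and 15.8 FPKM in Control (log2 fold change −0.51, limma adjusted p = 0.0450). The adjusted p of Ecpas was 0.0585 with the replicate block, 0.136 after rescaling, 0.148 with limma-voom and 0.0518 without a filter. Pomp, the chaperone of core assembly, and Adrm1 (Rpn13), a ubiquitin receptor, had log2 fold changes of −0.23 and −0.37 and did not pass (adjusted p = 0.273 and 0.227 in limma).

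Nfe2l1 (NRF1) overlapped widely, with 79.5, 85.4 and 122 FPKM in CKO and 60.2, 76.7 and 131 FPKM in Control, and a log2 fold change of 0.15 (95% confidence interval −0.55 to 0.86, limma adjusted p = 0.771). Of the 12 tested genes in the list of NRF1 processing and other regulators, 1 fell and 0 rose, a share of 8.33% that is near the 7.31% of all genes. This was Vcp, the ATPase that extracts ubiquitinated proteins and NRF1 from membranes, at 107, 99.1 and 114 FPKM in CKO and 152, 159 and 167 FPKM in Control (log2 fold change −0.57, limma adjusted p = 0.0353). Its adjusted p was 0.0527 with the replicate block, 0.0760 after rescaling and 0.0853 with limma-voom. Among 14 tested genes that make ubiquitin or deliver ubiquitinated proteins, Vcp among them, 2 fell and 0 rose (14.3%). None of these 4 calls held without CKO 1, CKO 2, CKO 3 or Control 2. The other was Ubqln2, a shuttle receptor, at 4.20, 4.33 and 4.86 FPKM in CKO and at 7.32, 13.2 and 10.1 FPKM in Control (log2 fold change −1.005, limma adjusted p = 0.0326). Its adjusted p was 0.0609 when no filter on low values was used.

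Other large complexes with stoichiometric subunits give a measure of how far the proteasome pattern is shared. All 8 genes of the CCT chaperonin, which folds actin and tubulin, had lower values in CKO, the median log2 fold change being −0.25, and in 7 of 8 every CKO library lay below every Control library, against 23.0% of all genes. The eIF3 translation initiation complex, related in structure to the lid, had a median of −0.18 over 13 genes, with 5 below without overlap. The COP9 signalosome, the other relative of the lid, had −0.08 over 10 genes, with 3 below and 1 above without overlap. After rescaling the medians were −0.11 for CCT, −0.04 for eIF3 and 0.04 for COP9, so that of COP9 changed sign. No gene of these 3 complexes passed the test in limma, and 3 of 8 (37.5%), 3 of 13 (23.1%) and 1 of 10 (10%) had an unadjusted p under 0.05, against 27.6% of all genes. The median of the 20S core was −0.25 and that of the 19S regulator −0.37, or −0.10 and −0.23 after rescaling. No difference between the complexes was tested.

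The 5 genes outside the rule whose levels followed the mean of the proteasome genes most closely over the 6 libraries were Sgms1, Txnrd1, Esd, Gclm and Prpf38b, with Pearson r from 0.996 to 0.998. They were the nearest of the tested genes by rule, and all genes share these libraries and their depth. Since they were chosen for this pattern, their lower values in CKO follow from the choice and are given as a description. Gclm, the modifier subunit of glutamate-cysteine ligase, was at 45.1, 24.5 and 64.6 FPKM in CKO and at 193, 260 and 223 FPKM in Control, a log2 fold change of −2.40. Txnrd1, thioredoxin reductase, was at 263, 175 and 299 FPKM in CKO and at 576, 625 and 590 FPKM in Control, a log2 fold change of −1.31. Sgms1, Esd and Prpf38b had log2 fold changes of −0.95, −0.77 and −0.35.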

How the data were processed

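RNA of PEMs was sequenced in 3 CKO and 3 Control libraries. The authors deposited 1 table with FPKM values per library, made from reads per gene, gene length and library size, and with signal columns, which hold mean counts per group divided by size factors. The processing notes name the build mm9, and the aligner, counter and annotation are not given in the sources used here. Columns with the authors' fold changes, p-values and q-values were not used. Whole reads per gene were recovered from the FPKM and group means (100% of values whole within 0.01), and depth was 36170767 to 42217558 reads per library.

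The study's methods name no test for this sequencing. Because the values are FPKM, limma 3.58.1 (lmFit, eBayes with trend, R 4.3.3) was fitted to log2(FPKM + 1) over the 9030 genes that averaged 1 FPKM or more in CKO or in Control, and p-values were adjusted by Benjamini-Hochberg with a threshold of 0.05. The log2(FPKM + 1) scale understates the change of low genes. Ratios were tested by a two-sided exact permutation test. Promoters came from RefSeq GRCm38.p6, whose coordinates were not mixed with the mm9 values. The fit was tested on simulated data. The members and the lists were chosen with earlier results of these data known. Named genes were the catalytic and activator genes, Psma8 and Psmb11, every member past the threshold, the extremes of each class, called members of the pathway lists with Nfe2l1, Pomp and Adrm1, and the 5 most similar genes. Other members were named after their values were seen. The replicate number was used as a block in an alternative fit. Deviations of same-numbered CKO and Control libraries from their group means correlated at 0.109, 0.109 and 0.304, against −0.332 to 0.291 for other pairs. These ranges overlap and do not settle whether the libraries were paired. The other alternatives were another pseudocount (0.1), no filter, at least 10 reads in every library, rescaling by the median of ratios, limma-voom on the recovered reads, and leaving out each library. The edgeR quasi-likelihood test was planned only for a table of counts and was not run.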

Additional observations from a re-analysis of the deposited data

How the results depend on the processing

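The number of genes called depended on single libraries. Leaving out 1 library at a time gave 8 to 1278 of 9030 genes called (660 with all libraries), 1 to 513 higher (232) and 7 to 765 lower (428), and 0 to 9 of the 40 proteasome genes (5). These fits have fewer samples, and the lowest count came without Control 2 and the highest without Control 3. Called proteasome genes numbered 3 of 40 with the replicate block, against 9.47% of all genes. They numbered 2 of 40 after rescaling, with the block and rescaling together, and with limma-voom, against 7.41%, 9.29% and 6.52% of all genes. The block changed the calls of Psmc1, Psmd1, Ecpas, Vcp and Timd4, named in the text, and no other named call. Genes called higher in CKO numbered 141 without a filter, 352 with the block and 491 with the block and rescaling. Their share of all calls was 35.2% in the fit reported and 51.3%, 50.6% and 58.5% after rescaling, with voom, and with the block and rescaling.

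The median log2 fold change of the proteasome genes stayed negative in every alternative run. It was −0.13 after rescaling, with and without the block, and −0.13 with voom. Timd4 passed the threshold with a pseudocount of 0.1 (−4.005, adjusted p = 0.0458 in limma), with the replicate block (−2.66, adjusted p = 0.0436), and without Control 3, and over single libraries left out its log2 fold change ranged from −3.63 to −2.01. Reversed in sign, without passing the threshold, were Psmb7 (0.042 after rescaling, with or without the block, and with voom), Psmc4 (0.0093, 0.0093 and 0.0092) and Psme4 (0.105, 0.105 and 0.113, and 0.053 and 0.021 without Control 1 and Control 2, the lowest value being −0.17 without Control 3). Psmd13 (0.026), Psmd10 (0.014) and Psme3ip1 (0.10) also reversed after rescaling. Nfe2l1 reversed to −0.037 without CKO 3 and −0.090 without Control 1, and ranged up to 0.46 over single libraries left out. The log2 ratio of Psmb6 to Psmb9 ranged from −0.58 to 0.43 over single libraries left out, with the reversal without Control 3, that of Psmb7 to Psmb10 from −0.97 to −0.38 and that of Psmb5 to Psmb8 from −1.36 to −0.69. The pairing of the ratios by replicate number was added after the data were seen and left their mean differences as they were (−1.05, −0.72, −0.17, 0.24 and −0.70). The cause of these changes was not tested. The 3 libraries per group, mixed cell markers and unequal values of Lyz2 and Timd4 within groups limit the comparison.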
